A study of Mus musculus with 8 samples.

Results

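The undifferentiated fraction of a mouse ES cell culture was compared with the fraction that had turned on the endoderm reporter and lost the ES cell surface antigen. The cells were HV cells, ES cells of strain 129/Ola with a knock in at the Hex (Hhex) locus, where the Venus fluorescent protein is read from the Hex transcript through an amplified IRES; all groups carry it. The samples were chosen by their labels: V+S- (Venus present, SSEA-1 absent) and V-S+ (Venus absent, SSEA-1 present), each from clones 5.1 and 16.1, which gives 4 of the 8 samples of the series. The other 4 were V+S+ and V-S- from the same clones. Each clone is a line grown from a single knock-in cell, was cultured for 24 hours with LIF under self-renewing conditions without feeders, and was sorted by flow cytometry into all 4 fractions. The 2 samples of a fraction are therefore the 2 clones, and each clone lay on an array slide of its own, so that clone and slide cannot be told apart.

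Primitive endoderm (PrEn) is the extra-embryonic layer that covers the epiblast of the blastocyst and gives rise to visceral and parietal endoderm. Parietal endoderm lays down a thick basement membrane of laminin and type IV collagen, and visceral endoderm takes up and secretes nutrients and plasma proteins. ES cells, which come from the epiblast side of this choice, are held in the undifferentiated state by factors such as Oct4 (Pou5f1) and Nanog, while Gata and Sox factors drive the endoderm programme.

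RNA was labelled with Cy3 and hybridised with a Cy5-labelled reference RNA pooled from 11 mouse cell lines, so a level, in the text that follows, is the log2 of Cy3 over Cy5 for 1 probe, and a change is V+S- minus V-S+ on that log2 scale. Levels of different probes are not comparable. Median Cy3 signal over local background was 2.64 and 2.75 in V-S+ and 2.86 and 2.87 in V+S- (clones 5.1 and 16.1), and no spot was saturated. The repeat scans of a sample differed by an SD of 0.056 to 0.078 on the log2 scale. Symbols came from 1998 probes that a supplementary gene table of the paper names. The study picked those probes because they differed between fractions on these same arrays, so counts among them are not independent evidence of a direction, and genes outside the table were not analysed by name here. Among the 15 regulators that the paper follows, 8 could be named; Hhex itself, Gata4, Hnf4a, Pdgfra, Klf4, Zfp42 and Id3 could not.

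Many more probes were higher in V+S- than lower. Of 29484 probes tested, 2615 (8.87%) were called higher in V+S- and 891 (3.02%) lower. A call needed a change past 1.5-fold and an FDR under 0.05 in a limma fit of all 8 samples with clone as a block. Without the block, limma called 1688 higher and 377 lower, all of them among those called with it. The median change of all probes tested was 0.01. The rises were also larger: 823 called probes rose by more than 2-fold and 105 fell by more than 2-fold, and past 4-fold these counts were 10 and 0. The share of calls that were higher was 74.6%, which became 63.1% with scanner-processed signals and 60% with the Cy3 channel alone; it was 81.7% without the block, 91.4% in an unmoderated test and 84.4% or 86.5% when clone 16.1 lost its V+S- or its V-S+ sample.

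Both clones changed the same way at each of the 3506 called probes, which the call itself, made on the mean of the clones against their spread, nearly fixes. Across all 29484 probes the changes in the 2 clones had a Pearson r of 0.87 and a Spearman rho of 0.84; probes are not independent, and both changes are measured on arrays of the same reference. Of the probes called higher, 2082 were past 1.5-fold in both clones. Of the probes called lower, 421 were, and 767 of the 891 fell further in clone 16.1, where their median change was -0.90, than in clone 5.1, where it was -0.60. Of the 2615 called higher, 1933 rose further in clone 16.1, and the medians were 0.79 in clone 5.1 and 0.90 in clone 16.1. The number called lower fell to 351 when clone 16.1 lost its V-S+ sample and to 481 when it lost its V+S- sample, while the number called higher stayed between 2249 and 2994 over all samples left out in turn.

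**Figure D1:**
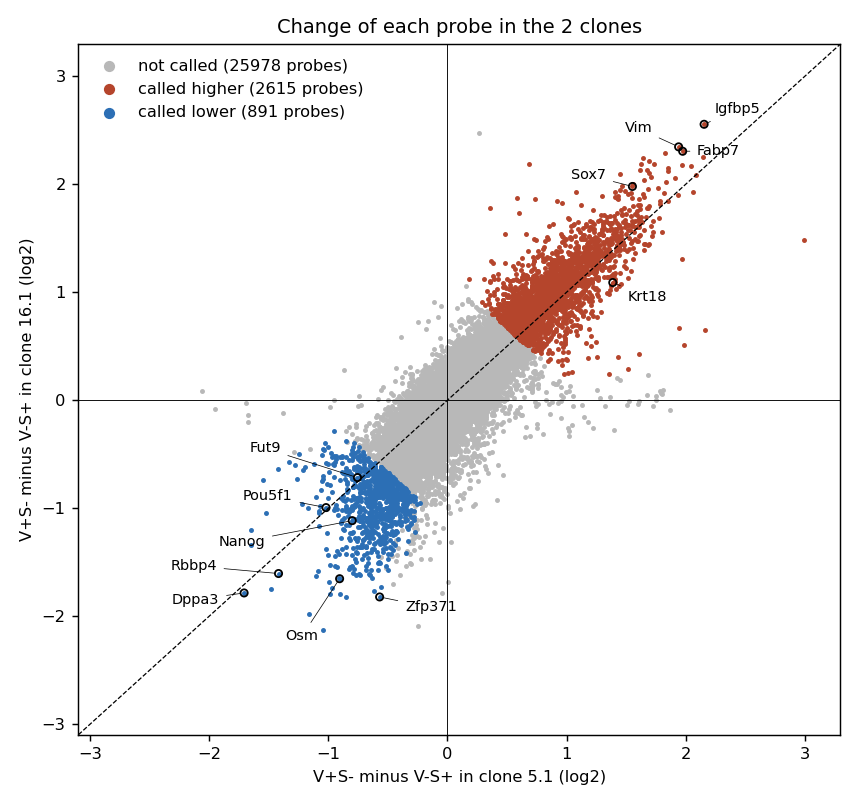
Change of each of 29484 probes, V+S- minus V-S+ on the log2 scale, in clone 5.1 (x axis) and clone 16.1 (y axis), with called probes in colour, 12 genes labelled and the dashed line marking equal change. Most called changes in either direction are larger in clone 16.1, so that 1933 of 2615 called rises lie above the dashed line and 767 of 891 called falls below it; grey probes near the x axis on the right have a positive change in clone 5.1 and little in clone 16.1.

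The largest named rise was in Igfbp5, a secreted binding protein of insulin-like growth factors. Igfbp5 had log2 ratios of -2.18 and -1.67 in V-S+ and -0.03 and 0.88 in V+S- (clones 5.1 and 16.1), so every V+S- sample lay above every V-S+ sample. The Igfbp5 change was 2.35 (SE 0.20, 5.12-fold higher, adjusted p = 0.000422). Vim, which encodes the intermediate filament protein of mesenchymal and parietal endoderm cells, followed with a change of 2.14 (4.42-fold), and Fabp7, a fatty acid-binding protein best known from neural progenitors, with 2.14 (4.41-fold). The rest of the 15 largest rises were in Pcdh18, Hmga2, Cav1, Maf, Antxr1, Itga11, Postn, Ifi202b, 1810011O10Rik, Col1a2, Ltbp1 and Axl, between 1.92 and 2.11. SEs in these 15 ran from 0.07 (Hmga2) to 0.20 (Igfbp5). They include a chromatin protein (Hmga2), the main protein of caveolae (Cav1), a collagen-binding integrin subunit (Itga11), matrix proteins (Postn, Col1a2, Ltbp1) and a receptor tyrosine kinase (Axl). Hmga2 had the same change in both clones, 2.09 in clone 5.1 and 2.09 in clone 16.1. Of probes with no name here, Z00000270-1 and Z00010007-1 rose most, by 2.24 and 2.20, the former by 2.99 in clone 5.1 and 1.48 in clone 16.1; Z00000270-1 was not called without the block (adjusted p = 0.124).

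The largest named fall was in Dppa3, also called Stella, a maternal and germ line protein of naive ES cells. Dppa3 had log2 ratios of 2.32 and 2.27 in V-S+ and 0.61 and 0.49 in V+S- (clones 5.1 and 16.1), with no overlap. The Dppa3 change was -1.75 (SE 0.18, 3.36-fold lower, adjusted p = 0.000761). The next falls were in Rbbp4, a histone-binding subunit of several chromatin complexes, with a change of -1.51, Prpf19, a splicing factor, with -1.50, and Osm, a cytokine of the interleukin-6 family, with -1.28. The remaining 11 were Spic, Zfp371, Tdrd12, Foxn4, RP23-395H4.4, Cpsf4l, Ankrd24, Cpt1a, Raly, Zp3 and Dmrt1, between -1.20 and -1.08. SEs in these 15 falls ran from 0.14 (Ankrd24) to 0.38 (Prpf19). Without the clone block 4 of these 15 lost their call: Prpf19 (adjusted p = 0.0575), Zfp371 (adjusted p = 0.0688), Cpsf4l (adjusted p = 0.0668) and Cpt1a (adjusted p = 0.0552). Of unnamed probes, Z00014800-1 and Z00064751-1 fell most, with changes of -1.61 and -1.59. Z00064751-1 was not called without the block (adjusted p = 0.0937).

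**Figure D2:**
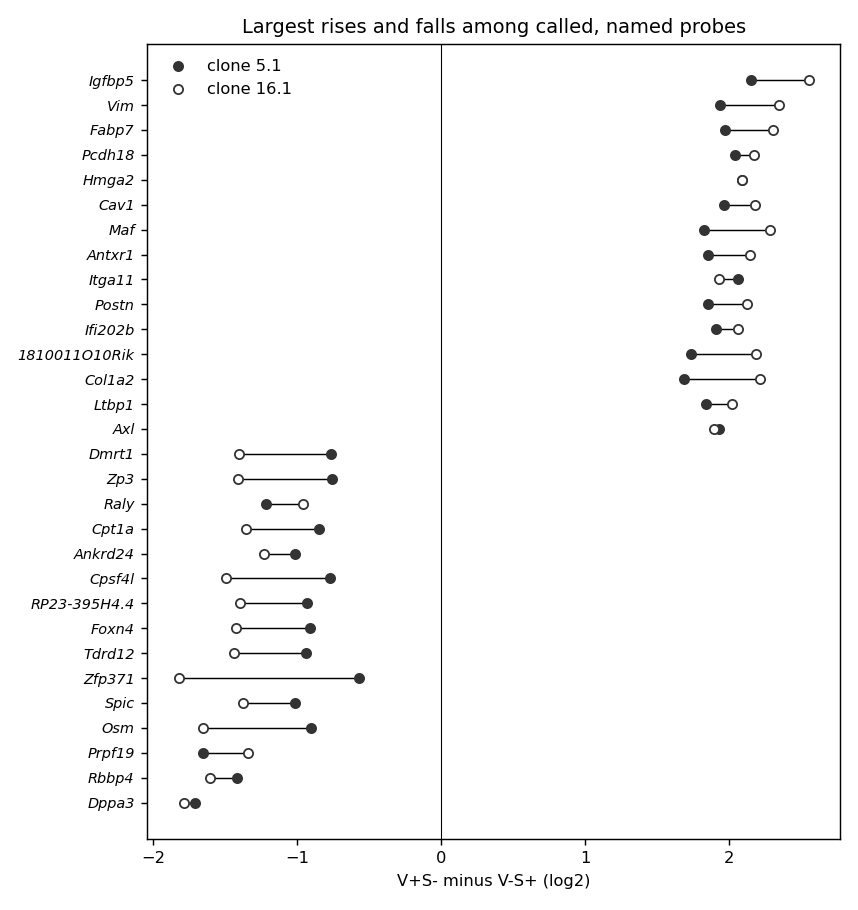
The 15 largest rises and 15 largest falls among called, named probes, as the change of V+S- minus V-S+ (x axis, log2) in clone 5.1 (filled) and clone 16.1 (open), joined by a line. The rises differ little between clones next to their size, and the falls differ more, most in Zfp371, which changed by -0.57 in clone 5.1 and -1.82 in clone 16.1.

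The samples are labelled by Venus and SSEA-1 only, so the endoderm character of V+S- was read from marker genes, of which only some could be named. Among the 1998 named probes, 54.9% were called higher and 15.9% lower, which is the level to read each list against, and their median change was 0.67. Over the 379 named probes of the lists below, the SE of a change had a median of 0.094 and lay between 0.052 and 0.378. Of 16 PrEn regulators and receptors, 6 were named and all 6 were called higher, with a median change of 1.17. Sox7, an endoderm transcription factor, rose most. Sox7 had log2 ratios of -0.32 and -0.20 in V-S+ and 1.23 and 1.78 in V+S- (clones 5.1 and 16.1), so both V+S- samples stood above both V-S+ samples. The Sox7 change was 1.77 (SE 0.14, 3.4-fold higher, adjusted p = 0.000367). Smad3, a transducer of TGF-beta signals, rose by 1.33, Lrp2 (megalin), an endocytic receptor of visceral endoderm, by 1.21, and Cited1, a transcriptional co-regulator, by 1.13. Dab2, the endocytic adaptor that PrEn cells need for their position, rose by 1.01 and Gata6, which specifies PrEn, by 0.90, both further in clone 5.1 (1.21 and 1.11) than in clone 16.1 (0.81 and 0.69).

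Named parietal endoderm genes were uniformly higher, as were all named genes of the PrEn list and of other lists below, such as the fibroblast markers. Vim, Krt8 and Col4a1, among others, also belong to other lists here. Of 17 on the parietal list, 10 were named and all 10 were called higher, with a median change of 1.19 and a range of 0.89 to 2.14. Besides Vim they were the keratins Krt19, Krt18 and Krt8, thrombomodulin (Thbd), the type IV collagen chains Col4a1 and Col4a2, Sparc, Snai1 and the laminin chain Lamb1-1. Krt19 was at -0.20 and 0.05 in V-S+ and 1.37 and 1.71 in V+S- (clones 5.1 and 16.1), and for Krt18 the change was larger in clone 5.1 (1.39) than in clone 16.1 (1.09). Thbd rose by 1.26 and Snai1, a repressor of epithelial genes, by 1.01. Visceral endoderm was covered thinly, with 4 of 21 genes named. Of these Lrp2 and the heme carrier hemopexin (Hpx, change of 0.60) were called higher, while Afp had a change of 0.58 (adjusted p = 0.00183, under 1.5-fold) and Mttp of 0.49 (adjusted p = 0.00316, under 1.5-fold).

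Markers of other cell types were read on the same arrays. All 5 named fibroblast markers of 15 (Postn, Col1a2, Prrx2, Twist2 and S100a4) were called higher with a median change of 1.47; their mean log2 ratio was -4.40 and -4.08 in V-S+ and -2.95 and -2.34 in V+S-. Of 7 named mesoderm markers, 5 were higher and 1 lower (means of -2.02 and -1.76 in V-S+, -1.25 and -0.97 in V+S-). Of 10 named neuroectoderm markers, 5 were higher (Fabp7, Dlx2, En1, Sox11 and Ncam1) and 3 lower (Tubb3, En2 and Hes5), with means of -0.98 and -0.81 in V-S+ and -0.39 and -0.24 in V+S-. For trophoblast 3 of 5 were higher (Gata3, Plac1 and Krt7) and 1 lower, and for epiblast 2 of 4 were higher (Fgf5 and Pou3f1). The shares called higher for neuroectoderm, trophoblast and epiblast lay near the 54.9% of all named probes, and without the block neither the mesoderm nor the trophoblast list had a member called lower and Sox11 was not called higher (adjusted p = 0.0525). Every one of these probes was well above background in all 8 scans of V-S+ and V+S-. Whether such cells account for part of any rise described here was not tested, and in a sorted bulk sample fewer cells of a type and less RNA per cell cannot be told apart.

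**Figure D3:**
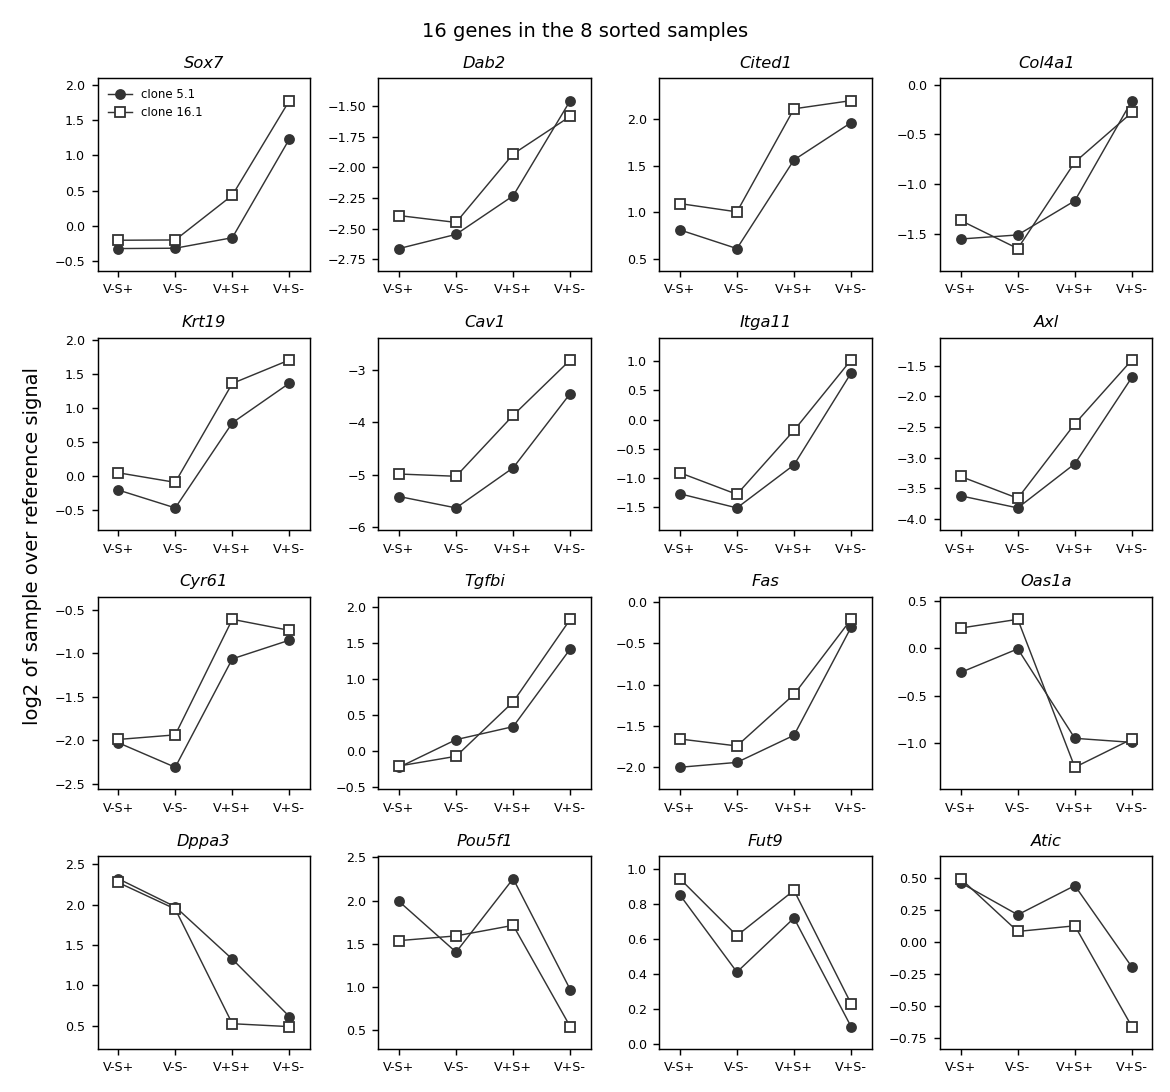
Log2 ratio of sample to reference (y axes, own range per panel) of 16 genes in the 4 fractions (x axis), with clone 5.1 as circles and clone 16.1 as squares, and a line joining the samples of a clone. In every panel the V+S- samples differ from the V-S+ samples of both clones, V-S- stays near V-S+ for most genes, and V+S+ lies between in many, while Pou5f1 in V+S+ is not below V-S+.

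Most named genes of the extracellular matrix were called higher. Of 10 named basement membrane genes (24 listed), 9 were called higher, with a median of 1.08. Pxdn, the peroxidase that cross-links type IV collagen, had the largest change, 1.87, followed by Col4a5 with 1.42 and the laminin chain Lama4 with 1.32. Col4a1 was at -1.55 and -1.36 in V-S+ and -0.16 and -0.28 in V+S- (clones 5.1 and 16.1), and Col4a2, its partner in the collagen trimer, rose by 1.07. Interstitial collagens and other matrix proteins gave 16 called higher and none lower of 18 named (27 listed), with a median of 1.37. Postn rose by 1.99, Col1a2 by 1.95, Tgfbi by 1.84, Thbs1 by 1.77 and Tnc by 1.38, whereas the osteopontin gene Spp1 had a change of -0.41 and was not called. Tgfbi had log2 ratios of -0.23 and -0.21 in V-S+ and 1.42 and 1.83 in V+S- (clones 5.1 and 16.1), so that the V-S+ samples were nearly equal and both V+S- samples were far above them.

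Enzymes and chaperones that make and mature collagen were also mostly called higher. Of 12 named (19 listed), 11 were called higher and none lower, median 1.02. Serpinh1 (Hsp47), the collagen chaperone of the endoplasmic reticulum, rose by 1.61, the procollagen proteinase Bmp1 by 1.58, the cross-linking enzymes Lox and Loxl4 by 1.32 and 1.30, and the lysyl hydroxylase Plod2 by 1.05. Proteases of the cell surface and matrix, with their inhibitors, showed the same direction: 25 of 27 named (33 listed) were higher and none lower, median 0.99. The largest were Adamts12 (1.91), the gelatinase Mmp9 (1.87), Adamts4 (1.71), the serine protease Prss23 (1.68) and Mmp14 (1.61), an activator of other metalloproteinases. The plasminogen activator Plau rose by 1.19 and its receptor Plaur by 1.15.

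Genes of cell adhesion and the cytoskeleton followed. Of 18 named integrin and focal adhesion genes (39 listed), 16 were higher and 1, Tln2, lower (-0.82), median 0.97. Itga11 rose by 2.00 and Itga8 by 1.73, and Itgb1, the beta subunit with which both pair, by 0.95. Itga11 was at -1.27 and -0.91 in V-S+ and 0.80 and 1.02 in V+S- (clones 5.1 and 16.1), with no overlap. Annexins, S100 proteins and caveolins, which bind membranes or calcium, gave 15 of 16 higher (24 listed), median 1.01, with Cav1 at 2.07, Anxa3 at 1.85 and Anxa5 at 1.65. Of 12 named intermediate filament genes (20 listed), 9 were higher with the block and 7 without it, and the neurofilament gene Nefh was lower (-0.85). Junction proteins of epithelia gave 13 of 19 higher (32 listed) and 1 lower, median 0.82, with the desmosome proteins Dsp and Dsc2 at 1.51 and 1.04 and the tight junction proteins Cldn4 and Tjp1 at 0.98 and 0.87. Without the block 9 junction genes were called higher and none lower. Over all named probes 54.9% were called higher with the block, and that share was not computed without it.

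Actin and contractile genes gave 25 of 30 named (37 listed) higher and 2 lower, with a median change of 0.93; without the block 18 were called higher and 1 lower. The smooth muscle genes Tagln and Acta2 rose by 1.31 and 1.27 with the block and were not called without it (adjusted p = 0.0562 and adjusted p = 0.0679). Fhl2, a LIM-domain co-regulator, rose most, by 1.66, followed by caldesmon (Cald1) with 1.61 and gelsolin (Gsn), which severs filaments, with 1.53. Fhl2 had log2 ratios of -1.44 and -1.26 in V-S+ and 0.27 and 0.35 in V+S- (clones 5.1 and 16.1). Its spread between clones was a small part of the difference. Actins and tropomyosins are near-identical families whose 60-base probes may take signal from each other. The serum response factor, which carries actin dynamics to the genes of actin itself, binds the CArG box. Among 27 called genes of the list, 23 matched a RefSeq promoter, and 6 of these held a CArG box in the 250 bases before the first listed start, against 378 of 27025 promoters of all genes (1.4%). Over all named genes the box was in 2.35% of promoters of those called higher and 3.39% of those called lower. GGAATG, the site of TEAD factors, was in 7 of the 23 (30.4%), against 12.6% of all promoters. TGANTCA, the AP-1 site, was in 0 of the 23. The list holds known targets of the serum response factor, so these shares are a description of the list. The 6 were Fhl2, Acta1, Cnn2 and Myl9, which were called higher, and Lima1 and Myl7, which were called lower, so the box occurred in members of both directions. The promoters of these 6 are shown as the called members that hold the box. Capitals mark the CArG box, and GGAATG on either strand.
Fhl2, GRCm38.p6, chr1:43196762-43197011, minus strand: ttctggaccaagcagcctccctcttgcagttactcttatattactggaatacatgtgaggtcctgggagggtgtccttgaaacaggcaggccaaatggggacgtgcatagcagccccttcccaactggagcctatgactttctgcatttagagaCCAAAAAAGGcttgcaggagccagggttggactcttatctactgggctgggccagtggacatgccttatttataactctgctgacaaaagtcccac
Acta1, GRCm38.p6, chr8:123894776-123895025, minus strand: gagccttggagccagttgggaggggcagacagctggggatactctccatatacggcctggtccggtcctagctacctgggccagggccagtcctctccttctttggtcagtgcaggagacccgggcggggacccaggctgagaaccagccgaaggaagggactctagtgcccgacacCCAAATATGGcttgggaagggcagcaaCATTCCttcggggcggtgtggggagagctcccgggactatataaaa
Cnn2, GRCm38.p6, chr10:79988350-79988599, plus strand: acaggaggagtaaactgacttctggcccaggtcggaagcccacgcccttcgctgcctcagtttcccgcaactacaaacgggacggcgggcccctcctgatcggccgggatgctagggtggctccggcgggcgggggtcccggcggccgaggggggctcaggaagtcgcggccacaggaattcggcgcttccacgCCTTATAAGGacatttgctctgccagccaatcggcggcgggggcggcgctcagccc
Myl9, GRCm38.p6, chr2:156775214-156775463, plus strand: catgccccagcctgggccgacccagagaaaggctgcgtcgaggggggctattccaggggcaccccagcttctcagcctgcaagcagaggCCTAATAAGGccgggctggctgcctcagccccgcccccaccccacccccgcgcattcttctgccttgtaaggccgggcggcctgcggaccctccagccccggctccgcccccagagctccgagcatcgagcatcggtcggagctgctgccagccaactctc
Lima1, GRCm38.p6, chr15:99820150-99820399, minus strand: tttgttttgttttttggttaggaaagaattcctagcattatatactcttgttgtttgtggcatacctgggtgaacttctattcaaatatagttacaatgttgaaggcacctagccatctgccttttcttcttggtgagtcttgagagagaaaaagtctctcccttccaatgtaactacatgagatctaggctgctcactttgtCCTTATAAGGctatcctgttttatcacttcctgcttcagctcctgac
Myl7, GRCm38.p6, chr11:5898783-5899032, minus strand: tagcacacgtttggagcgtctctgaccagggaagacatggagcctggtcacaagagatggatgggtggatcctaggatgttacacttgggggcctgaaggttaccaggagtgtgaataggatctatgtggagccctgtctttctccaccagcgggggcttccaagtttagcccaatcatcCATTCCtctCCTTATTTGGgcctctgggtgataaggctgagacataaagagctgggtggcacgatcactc
Against these sequences, Acta1 (skeletal alpha-actin) rose by 1.23, Cnn2 (calponin) by 0.69 and Myl9 (a myosin light chain, adjusted p = 0.0878 without the block) by 0.59. Lima1, an actin-bundling LIM protein, changed by -0.83 and the atrial light chain Myl7 by -0.65 (adjusted p = 0.064 without the block).

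YAP and TAZ are co-activators that act through TEAD factors and read out cell spreading and tension. The list of genes known to respond to them also holds components of the pathway. It gave 19 of 19 named (26 listed) higher, with a median change of 1.07 and a range of 0.65 to 1.92. Tgfb2 is counted both here and in the TGF-beta list. The matricellular genes Cyr61 and Ctgf rose by 1.22 and 1.07 and the nuclear ankyrin repeat gene Ankrd1 by 1.01. Cyr61 had log2 ratios of -2.03 and -1.99 in V-S+ and -0.85 and -0.73 in V+S- (clones 5.1 and 16.1), and within each fraction the clones differed by little. The receptor Axl had the largest change, 1.92, and components of the pathway itself rose too, among them Wwtr1 (TAZ) by 0.97, Amotl1 by 1.25 and the kinase Lats2 by 0.71 (adjusted p = 0.0757 without the block). Without the block, 14 of the 19 were called. The TEAD site was searched as GGAATG on both strands. It was present in the 250 bases before the start of 9 of the 17 genes with a RefSeq promoter (52.9%), against 3414 of 27025 promoters (12.6%) over all genes and 99 of 807 (12.3%) over all named genes called higher. The list was chosen for its known response to these factors, so the share is a description of the list. No CArG box was found in these 17, and TGANTCA, the AP-1 site, in 1 of them (5.88%), against 6.87% of all promoters. The same motifs were searched in the protease list and in the immediate early and stress list described below. Of 16 matched protease promoters, GGAATG was in 1, TGANTCA in 1 and the CArG box in 0. None of these motifs was in the 10 matched immediate early promoters. The promoters of Ankrd1, Cyr61 (Ccn1 in RefSeq) and Axl are shown as 3 of the 9 that hold the site, 2 of them well-known targets and the third the largest rise, with GGAATG on either strand in capitals.
Ankrd1, GRCm38.p6, chr19:36119845-36120094, minus strand: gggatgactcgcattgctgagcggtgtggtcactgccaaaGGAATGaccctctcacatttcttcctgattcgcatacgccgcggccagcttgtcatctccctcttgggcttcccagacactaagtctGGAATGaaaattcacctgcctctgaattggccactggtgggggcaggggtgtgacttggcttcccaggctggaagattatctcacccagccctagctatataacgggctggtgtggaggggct
Cyr61, GRCm38.p6, chr3:145649986-145650235, minus strand: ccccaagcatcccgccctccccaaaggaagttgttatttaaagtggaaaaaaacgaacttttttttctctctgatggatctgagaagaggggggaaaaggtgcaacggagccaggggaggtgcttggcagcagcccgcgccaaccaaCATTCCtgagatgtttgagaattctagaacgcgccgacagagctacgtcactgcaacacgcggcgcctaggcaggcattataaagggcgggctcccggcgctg
Axl, GRCm38.p6, chr7:25788734-25788983, minus strand: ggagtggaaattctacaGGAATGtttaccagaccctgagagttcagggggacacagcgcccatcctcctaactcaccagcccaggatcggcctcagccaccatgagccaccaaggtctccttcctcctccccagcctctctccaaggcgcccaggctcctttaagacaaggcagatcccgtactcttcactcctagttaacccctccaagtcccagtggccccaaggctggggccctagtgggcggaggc
No match of 1 motif overlapped a match of another in the promoters shown.

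All 15 named genes of the TGF-beta and BMP list (33 listed) were called higher, with a median change of 1.20. The ligands Tgfb2, Tgfb3 and Inhba (activin beta A) rose by 1.52, 0.99 and 1.26, the receptors Tgfbr2 and Tgfbr3 by 1.20 and 1.00 and the latent binding protein Ltbp1 by 1.93. Id2, a BMP target, was 2.82-fold higher. Id1, a further BMP target and inhibitor of basic helix-loop-helix factors, rose by 0.93. Id2 had log2 ratios of -1.26 and -1.16 in V-S+ and 0.07 and 0.50 in V+S- (clones 5.1 and 16.1), so both clones showed the rise. Tgfb2 was not called without the block (adjusted p = 0.0549).

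The FGF, EGF and ERK list gave 13 of 18 named (32 listed) higher and 2 lower, median 0.94. Egfr rose by 1.62 and its ligand Areg by 1.13, Fgf5 by 1.46, and the phosphatases Dusp5, Dusp4 and Dusp6, which switch off ERK and are its targets, by 1.46, 1.02 and 0.94. The members that fell were Etv5, an ETS factor of undifferentiated ES cells (-0.66), and Fgf15 (-0.74). Egfr was at -1.92 and -1.53 in V-S+ and -0.38 and 0.17 in V+S- (clones 5.1 and 16.1), and Etv5 was at 1.19 and 1.27 in V-S+ and 0.58 and 0.57 in V+S- (clones 5.1 and 16.1); in neither gene did the fractions overlap. Immediate early and stress factors gave 12 of 15 higher (23 listed) with the block and 7 without it, median 0.84, with Fosl2 at 1.57 (adjusted p = 0.0503 without the block), Jun at 1.23 and Fos at 0.84. These genes also respond to handling of cells, and the part of dissociation and sorting was not tested.

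Among p53 targets and apoptosis regulators, 13 of 15 named (26 listed) were higher and none lower, median 0.97. The list also holds Cdkn2b, a cell cycle inhibitor known as a TGF-beta target rather than a p53 target, which rose by 1.64. The death receptor Fas rose by 1.57, Perp by 1.44, Ccng1 by 1.21 and the BH3-only gene Pmaip1 (Noxa) by 1.08. Fas had log2 ratios of -1.998 and -1.656 in V-S+ and -0.305 and -0.208 in V+S- (clones 5.1 and 16.1), with V+S- well above V-S+ in both clones. Mdm2, which both restrains p53 and is its target, rose by 0.90.

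Interferon-responsive genes split. Of 18 named (28 listed), 6 were called higher and 8 lower, with a median change of -0.57. Those that rose were Ifi202b (1.99), Irf2 (1.28), the antigen presentation genes Tap1 (1.21) and B2m (1.17), Ube1l and Ifi204. Those that fell were the oligoadenylate synthetase genes Oas1a, Oas1b, Oas1e and Oas1g, Stat2 (-0.91), Irf8 (-0.78), Ifitm1 and Trim25. Without the block 6 were called higher and 6 lower, with Stat2 and Trim25 no longer called (adjusted p = 0.05 and adjusted p = 0.0557). Oas1a was at -0.26 and 0.21 in V-S+ and -0.99 and -0.96 in V+S- (clones 5.1 and 16.1), with no overlap and a change of -0.96. The Oas1 genes are close paralogs, and their probes may share signal.

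**Figure D4:**
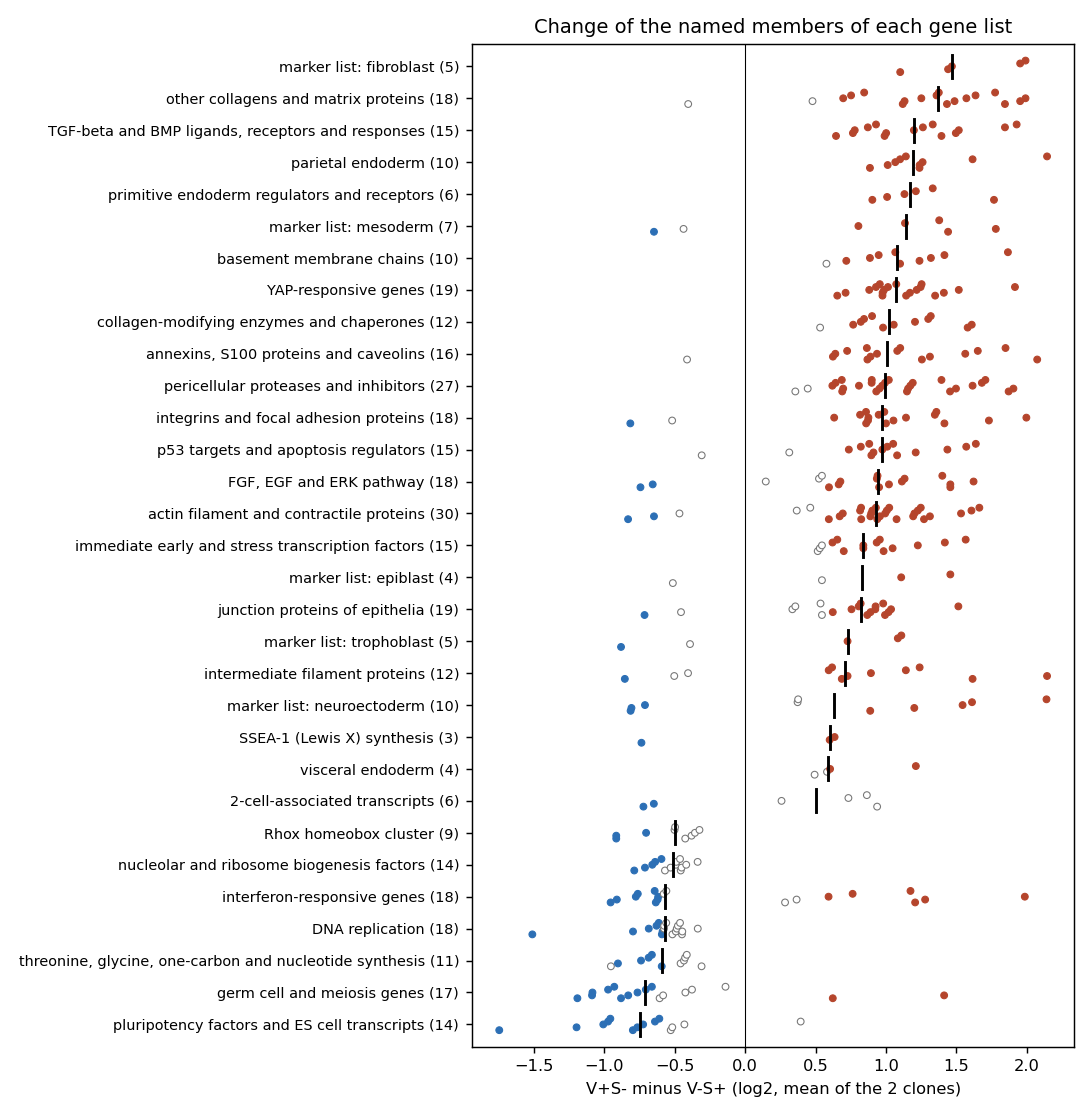
Change of V+S- minus V-S+ (x axis, log2, mean of the 2 clones) of each named member of 31 gene lists, with the number of members in parentheses; red is called higher, blue called lower, open not called, and the black bar is the list's median. The medians of the matrix, adhesion, cytoskeleton and signalling lists lie to the right of 0 and those of the pluripotency, germ cell, biosynthesis, replication and interferon-responsive lists to the left; several lists, such as the germ cell, actin, junction and interferon-responsive lists, have called members on both sides.

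Most named genes of the undifferentiated state were called lower. Of 14 named pluripotency factors and ES cell transcripts (33 listed), 10 were called lower and none higher, with a median change of -0.75; 6 were called lower without the block. Pou5f1 (Oct4), the factor that ES cells cannot do without, had a change of -1.01. Pou5f1 had log2 ratios of 1.99 and 1.54 in V-S+ and 0.97 and 0.54 in V+S- (clones 5.1 and 16.1), with no overlap. The Pou5f1 change was -1.01 (SE 0.17, 2.01-fold lower, adjusted p = 0.00393). Nanog changed by -0.96, Mycn by -0.80, Prdm14, a repressor of differentiation, by -0.77 (adjusted p = 0.0507 without the block) and Tdgf1 (Cripto) by -0.61. Sall4 with -0.52 and Gdf3 with -0.43 were not called. The sort for SSEA-1 could be set against its synthesis, for which 3 of 11 listed genes were named. Fut9, the fucosyltransferase that makes this antigen, was at 0.85 and 0.95 in V-S+ and 0.10 and 0.23 in V+S- (clones 5.1 and 16.1). The Fut9 change was -0.74 (adjusted p = 0.000368). The galactosyltransferases B4galt3 and B4galt4 changed the other way, by 0.64 and 0.60, the latter not called without the block (adjusted p = 0.0741).

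Germ cell and meiosis genes, many of which ES cells transcribe, gave 10 of 17 named (25 listed) lower and 2 higher, median -0.71, and 5 lower without the block. Tdrd12, a component of the piRNA pathway, changed by -1.19, the zona pellucida gene Zp3 by -1.09, Dmrt1 by -1.08 and the receptor Kit by -0.93 (adjusted p = 0.0514 without the block), while Tdrd7, a Tudor protein of germ granules, rose by 1.41. Of 9 named Rhox homeobox genes (19 listed), which lie in a cluster on the X chromosome, 3 were called lower and none higher, median -0.50. Rhox5 was at 0.82 and 0.69 in V-S+ and 0.29 and -0.61 in V+S- (clones 5.1 and 16.1), so the fall was -0.53 in clone 5.1 and -1.30 in clone 16.1, and it was not called without the block (adjusted p = 0.139). The Rhox4 copies are near-identical, and their 5 probes are not separate evidence.

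Transcripts tied to the 2-cell-like state of rare ES cells were few among the named probes. Of 6 named (18 listed), Pramel6 and Obox6 were called lower and none was called higher; Obox6 lost its call without the block (adjusted p = 0.075). Tcstv3 changed by 1.79 in clone 5.1 and 0.09 in clone 16.1 and Zscan4c changed by 1.51 and -0.04, and neither passed the test (adjusted p = 0.0869 and adjusted p = 0.145). The levels of Zscan4c were -1.70 and -0.82 in V-S+ and -0.19 and -0.87 in V+S- (clones 5.1 and 16.1), so the spread between the V-S+ samples alone was larger than the mean difference.

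Named members of the biosynthesis and replication lists had negative changes, most of them under 1.5-fold. Of 11 named genes for threonine, glycine, one-carbon and nucleotide synthesis (26 listed), 5 were called lower and none higher, median -0.59, and all 11 had negative changes in both clones. Atic, which completes purine synthesis, was at 0.46 and 0.49 in V-S+ and -0.19 and -0.66 in V+S- (clones 5.1 and 16.1), a change of -0.90. Threonine dehydrogenase (Tdh), on which mouse ES cells depend, had a change of -0.95 that did not pass (adjusted p = 0.052), with -0.47 in clone 5.1 and -1.44 in clone 16.1. Of 18 named DNA replication genes (45 listed), 7 were lower and none higher, median -0.57. Besides Rbbp4 they included cyclin E1 (Ccne1, -0.80), Uhrf1, which maintains DNA methylation at replication (-0.69), and the phosphatase Cdc25a (-0.63), while the helicase subunits Mcm2, Mcm4 and Mcm6 had changes of -0.49, -0.49 and -0.34 and were not called. Nucleolar and ribosome biogenesis factors gave 5 of 14 named (29 listed) lower and none higher, median -0.51, with nucleolin (Ncl) at -0.79 and Nle1 at -0.71. In these 3 lists every named member had a negative change in both clones, and all members not called, except Tdh, were under 1.5-fold.

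The clones differed most, among called and named probes, in Zfp371, B020031M17Rik, Itpka, Calcoco2 and Sgk2. B020031M17Rik rose by 1.51 in clone 5.1 and 0.29 in clone 16.1, while Calcoco2, an autophagy receptor, changed by -0.35 and -1.42, and Itpka, an inositol trisphosphate kinase, by -0.50 and -1.57. None of the 5 was called without the block, with adjusted p-values from 0.0688 to 0.104. A difference between the clones has no replicate, so it was not tested.

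The other fractions place these values. They are set against the same V-S+ samples, so the differences below share their controls. In V-S-, which lacks SSEA-1 and Venus, the median difference from V-S+ was -0.02 for collagens and matrix proteins, -0.12 for YAP-responsive genes, -0.06 for PrEn regulators and 0.01 for pluripotency genes, but 0.31 for Rhox genes and 1.17 for the 6 named 2-cell-associated transcripts. Among the latter, Tcstv3 was at 1.90 and 2.37 in V-S- against -0.27 and 0.55 in V-S+ (clones 5.1 and 16.1), and Zscan4c at 0.08 and 0.95 in V-S- against -1.70 and -0.82. In V+S+, which has both, the medians of the first 4 of these lists were 0.45, 0.66, 0.50 and -0.45, against 1.37, 1.07, 1.17 and -0.75 in V+S-. Pou5f1 was at 2.25 and 1.71 in V+S+, above its V-S+ level in each clone, and Fut9 at 0.72 and 0.88, also close to V-S+. In V-S-, Fut9 was at 0.41 and 0.62, between its V-S+ and V+S- levels in each clone. Rhox genes went further in V+S+ (median difference -0.81) than in V+S- (-0.50). So did germ cell genes (-0.77 in V+S+ against -0.71 in V+S-) and epiblast markers (0.91 against 0.83). The 2-cell-associated transcripts had medians of -0.70 in V+S+ and 0.50 in V+S-. These differences between fractions are given as values and were not tested here.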

How the data were processed

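The authors hybridised Cy3-labelled RNA of 8 sorted samples with a Cy5-labelled reference to 60-base probe arrays and deposited, per the file headers, the intensity of each spot from Agilent Feature Extraction 9.5.1.1, as 2 repeat scans for each array (16 files). They also deposited log10 values for 25164 probes, with column medians between 2.31 and 2.34; these rose with the Cy3 over Cy5 ratios (r = 0.866 across probes for 1 difference between fractions), and the level they were set to stays unknown. Headers and methods differ in the design number of the array.

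Here mean signals and median local backgrounds were corrected with normexp (offset 50), each scan was normalised by loess with control spots at weight 0, outlier spots were set missing, and spots of a probe and then the scans were averaged (limma 3.58.1, R 4.3.3). The log2 ratio of Cy3 to Cy5 was computed from the deposited intensities. Of 42006 probes, 29495 passed the filter (Cy3 well above background in every file of any fraction), 11 of them lacked a value, and 29484 were tested. All 8 samples were fitted with fraction and clone as terms (lmFit, eBayes), with Benjamini-Hochberg adjustment over all probes tested. The array gives no counts, so the number of arrays limits the precision, and p-values measure the spread that is left over the 8 samples after fraction and clone, in only 2 clones.

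Clone was the block because the fractions of a number come from the same cell line. What a clone deviated by from its fraction's mean correlated across probes with r between 0.588 and 0.811 over the pairs of fractions. Symbols came from 1998 rows of a supplementary gene table of the paper, which was used in part; 1 probe had no usable symbol, and none of its values were used. The 31 gene lists and the samples compared were chosen with earlier results of these data known, and lists held 755 entries, of which 405 could be named. Named genes were the 15 largest rises and falls called with the same direction in both clones, the largest called members of each list, regulators the paper follows, the 5 called probes whose clones differed most and 4 unnamed probes; other list members were named after their values were seen. Promoters are RefSeq sequences of GRCm38.p6, matched by symbol or synonym, from 250 bases before the first listed start to that start. The fits were tested on simulated data. Alternatives were scanner-processed signals, no background correction, median centring, Cy3 alone with quantile normalisation, 2 other filters on dim probes, each scan alone or as a replicate, the authors' values, no block, only the 4 samples, an unmoderated test, no fold threshold and each sample left out.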

Additional observations from a re-analysis of the deposited data

Results flagged for a closer look

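In the following list members the changes in the clones, 1 sample per fraction in each, had opposite signs, though 1 of the 2 was always near 0 and under the SD between repeat scans (0.056 to 0.078); the difference was not tested. Zscan4c, a marker of the 2-cell-like state, changed by 1.51 in clone 5.1 and -0.04 in clone 16.1. Sall3 changed by 0.02 in clone 5.1 and -1.04 in clone 16.1, and Gdf9, an oocyte growth factor, by 0.03 and -0.30. None of the 3 was called in V+S- against V-S+.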

How the results depend on the processing

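In the limma fits, direction held for the named genes and list members under each alternative that gave them a value (399 to 402 of 402), except Gdf9, which was not called and went from -0.303 to 0.023 over the samples left out (the latter when V-S+ of clone 16.1 was). Clone pairs the samples, and with no replicate block the counts called higher and lower were 1688 and 377 over all 8 samples and 1642 and 376 over the 4 samples alone, and 53 of 321 named calls were lost over all 8 samples. An unmoderated test lost 73 of the 321, and the count called lower was 198 in it, 1988 with the scanner-processed signals and 1464 with the Cy3 channel alone; the cause was not tested. With no fold threshold 7706 were higher and 5033 lower, by construction. Leaving out each sample gave 2249 to 2994 higher and 351 to 1301 lower. The authors' values covered only 18299 probes, of which 2486 were called higher and 1249 lower, a larger share of those tested in both directions; 1810 and 504 of these calls were shared with the fit reported. The other alternatives kept both counts within 1.5 times. Median Cy3 signal was 2.36 to 2.87 times background, so small changes of dim probes are poorly measured, and 2 clones limit the precision of every value.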

Other observations

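Rbbp4, Prpf19, Raly and the unnamed probe Z00014800-1 were among the largest falls in V+S-. They were also low in the V-S- sample of clone 5.1, and less so or not in that of clone 16.1. In V-S- of clones 5.1 and 16.1, Prpf19 was at -1.21 and 0.24, against 0.43 and 0.20 in V-S+. Rbbp4 was at -0.45 and 0.17, against 0.61 and 0.46, and Raly at -0.88 and -0.04, against 0.34 and 0.28. Z00014800-1 was at -1.03 and -0.21, against 0.39 and 0.37. In V+S+ all of these probes were near or above the V-S+ level in both clones. This was noticed after the values were seen and was not tested.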
